A study of Drosophila melanogaster with 8 samples.

Results

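The UBR and elongin ubiquitin ligase genes of Drosophila were followed in RNA from whole fly heads. The set holds 9 genes, taken by gene name from the deposited table of 13982 genes: the UBR box ligases Ubr1, Ubr3, poe and hyd, the elongin subunits EloA, EloB and EloC, and Cul2 and Vhl, which form a ligase with EloB and EloC. All 9 were among the 9986 genes with enough reads for a test. The genes were selected on their difference between these same genotypes, with the fold changes and calls already known, so both are given here as a description of the set.

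ND-75KD flies carried nSybGal4/ND-75 RNAi (hairpin HMS00853 against ND-75, a complex I subunit), and Control flies carried nSybGal4/w[1118]. The nSyb-Gal4 driver, which is active in neurons, was thus shared by both genotypes. Each of the 4 libraries per genotype came from 20 heads of 2 day old adults (10 male and 10 female). The study's text gives the driver of this head experiment as Tub-Gal80ts with nSyb-Gal4, and its controls as hemizygous for both, since nSyb-Gal4 alone was lethal to knockdown pupae. Tub-Gal80ts, a repressor that dampens Gal4, is not named in the labels. The hairpin line was reported to be leaky without a driver, and Control flies lack that line. A whole head also holds glia, fat body and muscle. Separate crosses are not stated for the pools of heads, and p values therefore reflect only how far these pools differ.

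Ubiquitin ligases pick the proteins to which ubiquitin is attached, and many of those proteins then go to the proteasome. UBR box proteins are known for reading N-degrons, destabilising residues at the start of a protein, and in neurons this route takes part in protein turnover, synapse function and cell death. Elongin B and elongin C serve in both transcription and protein turnover. With elongin A they raise the rate at which RNA polymerase II elongates transcripts, and with a cullin and a substrate receptor such as Vhl they form a ligase that in well oxygenated cells removes the hypoxia factor.

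ND-75 itself had 316, 313, 282 and 312 CPM in ND-75KD libraries 1 to 4, against 578.5, 562, 680 and 684 CPM in Control libraries 1 to 4. CPM is the usual depth-scaled read count, here with TMM scaling, which sets libraries to a common level. The log2 fold change of ND-75, given throughout as ND-75KD over Control, was -1.03 ± 0.111 (SE; edgeR quasi-likelihood test, adjusted p = 1.48e-04), in the direction the labels give. Library totals were 17448199 to 24071517 counts in ND-75KD and 21758154 to 24680283 in Control. Control 2 and Control 3 stood apart from the other libraries: their levels, relative to the mean of the 8 libraries, fell with gene length. Spearman's rho across tested genes was -0.599 and -0.343 in them, against 0.271 to 0.327 in ND-75KD libraries and 0.114 and 0.101 in Control 1 and 4. Each rho is thus relative to a mean that includes Control 2 and Control 3. Mitochondrial large ribosomal RNA took 23.9% of the reads of Control 2 and 4.581% to 9.001% of those of the other libraries. Median log2 fold change ran from -0.37 in the shortest decile of tested genes to 0.23 in the longest decile, and the fold changes of the 9 genes are therefore also given without these libraries and with the length trend removed. Ratios, sums and levels are from all 8 libraries, with the values without Control 2 and Control 3 where those change the picture.

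Of the 9 genes, 4 were called higher in ND-75KD heads (Ubr1, poe, EloA and Cul2), 2 were called lower (EloB and EloC), and 3 were not called (Ubr3, hyd and Vhl), where a call means an adjusted p below 0.05 over all tested genes. Among all 9986 tested genes 14.3% were called higher, 18.9% lower and 33.2% in either direction. The ND-75KD libraries lay all above the Control libraries for Ubr1, poe, EloA and Cul2 and all below them for EloB, EloC and Vhl; of all tested genes, 17.2% lay above, 19.0% below and 36.2% did not overlap in either direction. Because the choice of genes used this contrast, nothing is read from these counts.

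**Figure D1:**
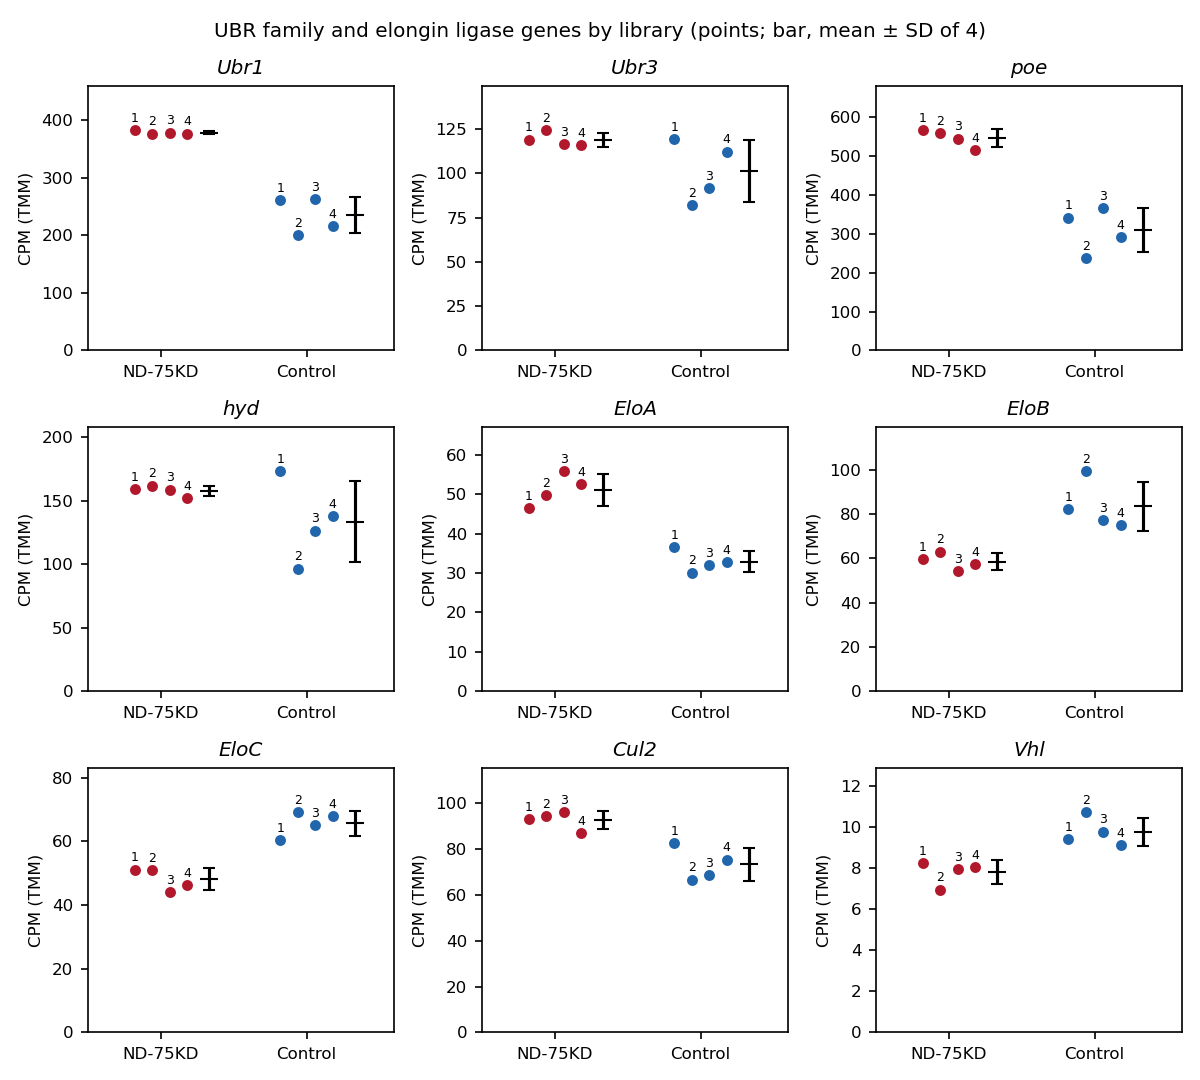
Level of each of the 9 genes (CPM after TMM scaling, axes from 0) in ND-75KD libraries 1 to 4 (red) and Control libraries 1 to 4 (blue), with the mean ± SD of each genotype at the side. Ubr1, poe, EloA and Cul2 lie higher in every ND-75KD library than in any Control library, EloB, EloC and Vhl lie lower, and Ubr3 and hyd overlap.

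Ubr1, the fly relative of the N-recognin that binds basic and bulky hydrophobic N-terminal residues, lies on X (X:16956232-16968679, minus strand, FBgn0030809). It had 383, 377, 379 and 377 CPM in ND-75KD libraries 1 to 4, against 261, 201, 263 and 216 CPM in Control libraries 1 to 4. All ND-75KD values lay above the highest Control value. The mean was 379 ± 3.00 CPM in ND-75KD and 235 ± 31.5 CPM in Control (SD, n = 4 each), and the log2 fold change was 0.69 ± 0.113 (SE). The 4 ND-75KD pools were very close to each other: their coefficient of variation was 0.792%, against 13.4% in Control, where counting alone would give 1.08% and 1.46%. Control 2 and Control 4 were the low libraries for this gene.

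poe (purity of essence, also called pushover; 2L:8054322-8071624, minus strand, FBgn0011230) encodes the relative of mammalian UBR4, a very large calmodulin binding protein first known in flies for its effects on neuronal excitability and sperm formation. It had 567, 558.5, 545 and 516 CPM in ND-75KD libraries 1 to 4, against 342, 237.5, 365 and 292 CPM in Control libraries 1 to 4. The genotypes did not overlap. The mean was 547 ± 22.5 CPM in ND-75KD and 309 ± 56.8 CPM in Control (SD, n = 4 each), and the log2 fold change of 0.82 ± 0.138 (SE) was the highest of the 9 genes. Control 2 was the lowest library for poe as for Ubr1.

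The other UBR genes differed less between genotypes. Ubr3, a ligase known in flies for acting on Diap1 and on hedgehog signalling (X:7935896-7953883, plus strand, FBgn0260970), had 119, 124, 116.5 and 116 CPM in ND-75KD libraries 1 to 4, against 119, 82.2, 91.7 and 112 CPM in Control libraries 1 to 4. Control 1 and Control 4 were level with the ND-75KD libraries, and Control 2 and Control 3 were low. The log2 fold change was 0.23 ± 0.121 (SE). hyd (hyperplastic discs; 3R:9714623-9725615, minus strand, FBgn0002431), the HECT ligase that restrains imaginal disc growth, had 159, 162, 159 and 152 CPM in ND-75KD libraries 1 to 4, against 173.5, 96.7, 126.5 and 138 CPM in Control libraries 1 to 4. Control 1 was above every ND-75KD library and Control 2 far below them, so the genotypes overlapped, and the log2 fold change was 0.24 ± 0.152 (SE). Their coefficients of variation in Control, 17.1% for Ubr3 and 23.8% for hyd, were several times those in ND-75KD, 3.24% and 2.59%.

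The 4 UBR transcripts together came to 1228, 1222, 1199 and 1161 CPM in ND-75KD libraries 1 to 4, against 896, 617, 846 and 758 CPM in Control libraries 1 to 4. The ratios to Ubr1 within the family restate the levels of the single genes, since Ubr1 was called higher and hyd and Ubr3 were not. They are no further result. Per kilobase of gene length, hyd stood at 0.326 ± 0.00835 of Ubr1 in ND-75KD and 0.443 ± 0.0776 in Control, and Ubr3 at 0.238 ± 0.00822 of Ubr1 in ND-75KD and 0.329 ± 0.0552 in Control (SD, n = 4 each), with no overlap between genotypes for either ratio. The ratio of poe to Ubr1 per kilobase, 0.631 ± 0.0233 in ND-75KD and 0.573 ± 0.0400 in Control, overlapped between genotypes but did not without Control 2 and Control 3, when Control averaged 0.583. The hyd and Ubr3 ratios to Ubr1 in Control were then 0.510 and 0.370, still without overlap.

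Among the elongins, the genes for the large subunit and the small subunits differed in opposite directions. EloA (3R:23251563-23255071, plus strand, FBgn0039066) encodes the large subunit, which carries the transcription activity. It had 46.4, 49.7, 55.8 and 52.5 CPM in ND-75KD libraries 1 to 4, against 36.5, 30.1, 32.0 and 32.8 CPM in Control libraries 1 to 4. Every ND-75KD library lay above every Control library, and the log2 fold change was 0.64 ± 0.0979 (SE). Control 1 was the highest Control library for EloA and ND-75KD 1 the lowest ND-75KD library.

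EloB (3R:20578222-20579850, minus strand, FBgn0023212) encodes the ubiquitin-like subunit that holds elongin C in the complex. It had 59.6, 63.1, 54.1 and 57.5 CPM in ND-75KD libraries 1 to 4, against 82.3, 99.4, 77.2 and 75.0 CPM in Control libraries 1 to 4. The genotypes did not overlap, Control 2 was the highest library, and the log2 fold change was -0.51 ± 0.107 (SE). EloC (2R:19445085-19446286, minus strand, FBgn0266711) encodes the Skp1-like subunit that contacts the cullin and the BC box of the substrate receptor. It had 51.2, 50.9, 44.1 and 46.3 CPM in ND-75KD libraries 1 to 4, against 60.3, 69.2, 65.1 and 68.0 CPM in Control libraries 1 to 4. The 8 libraries again fell apart by genotype, with a log2 fold change of -0.45 ± 0.0904 (SE) and about the same spread in ND-75KD (7.23%) as in Control (6.02%).

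The transcript ratio of EloA to its partners was therefore higher in ND-75KD heads. Per kilobase, EloA over EloB was 0.327, 0.332, 0.434 and 0.384 in ND-75KD libraries 1 to 4, against 0.187, 0.127, 0.175 and 0.184 in Control libraries 1 to 4. EloA over EloC averaged 0.244 ± 0.0367 in ND-75KD and 0.115 ± 0.0165 in Control (SD, n = 4 each), and neither ratio overlapped. That had to follow from the levels above: in ND-75KD, EloA lay above and EloB and EloC lay below all Control libraries. EloA is the longer gene in both ratios, so they also hold the length trend, which was not removed from them. EloB over EloC, the pair that both kinds of complex share, averaged 0.660 ± 0.0197 in ND-75KD and 0.689 ± 0.0836 in Control and overlapped. EloB and EloC together came to 98.3 to 114 CPM in ND-75KD and 142 to 169 CPM in Control.

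**Figure D2:**
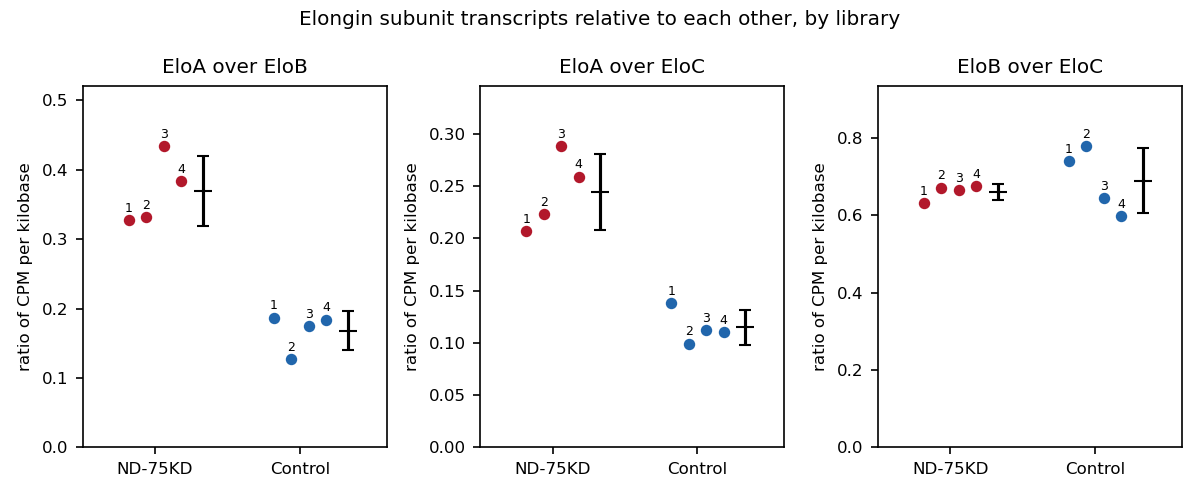
Ratios of elongin subunit transcripts (CPM per kilobase of gene length, no unit, axes from 0) in ND-75KD libraries 1 to 4 (red) and Control libraries 1 to 4 (blue), with mean ± SD. EloA over EloB and EloA over EloC are higher in every ND-75KD library than in any Control library, whereas EloB over EloC overlaps. The separation follows from the levels of the single genes, and the length trend is not removed.

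Cul2 (2L:21658735-21663698, plus strand, FBgn0032956), the cullin scaffold of the Vhl ligase, had 93.0, 94.3, 96.2 and 87.0 CPM in ND-75KD libraries 1 to 4, against 82.7, 66.7, 68.6 and 75.3 CPM in Control libraries 1 to 4. The lowest ND-75KD library was only a little above Control 1, and the log2 fold change was 0.34 ± 0.0936 (SE). Cul2 over EloB per kilobase averaged 0.559 ± 0.0459 in ND-75KD and 0.314 ± 0.0555 in Control (SD, n = 4 each). It did not overlap, which had to follow, since in ND-75KD Cul2 lay above and EloB below all Control libraries. Cul2 is the longer gene, so this ratio also holds the length trend, and without Control 2 and Control 3 it averaged 0.354 in Control. Cul2 over Cul5, the cullin that pairs elongins with SOCS box receptors, averaged 2.24 ± 0.158 in ND-75KD and 2.18 ± 0.113 in Control with overlap (SD, n = 4 each).

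Vhl (2R:11279725-11281033, plus strand, FBgn0041174), the substrate receptor that binds the hydroxylated hypoxia factor, was the least abundant of the 9 transcripts per kilobase. It had 8.24, 6.95, 7.97 and 8.05 CPM in ND-75KD libraries 1 to 4, against 9.42, 10.7, 9.78 and 9.14 CPM in Control libraries 1 to 4. The libraries did not overlap, but the log2 fold change of -0.32 ± 0.115 (SE) did not pass the threshold. These values rest on 139 to 218 reads in ND-75KD and 152 to 230 in Control, for which counting alone would give a coefficient of variation of 7.56% and 7.07%, close to the 7.42% and 7.14% between libraries. In the Ensembl annotation 550 of the 1309 exonic bases of Vhl (42.0%) are shared with CG9062 on the opposite strand, and a strand setting for the counting is not given in the sources used here, so the level of Vhl is uncertain. CG9062 had 19.8 CPM in ND-75KD and 19.9 CPM in Control on average. The other 8 genes share 0 to 53 exonic bases with any gene.

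Per kilobase, the order of the levels differed a little between genotypes. In ND-75KD heads it ran EloC (73.6 ± 5.32 CPM per kilobase), Ubr1 (53.4 ± 0.423), EloB (48.5 ± 3.11), poe (33.7 ± 1.39), Cul2 (27.0 ± 1.16), EloA (17.8 ± 1.41), hyd (17.4 ± 0.450), Ubr3 (12.7 ± 0.411) and Vhl (5.96 ± 0.442; SD, n = 4). EloA and hyd were the only neighbours in this order whose libraries overlapped. In Control heads it ran EloC (100.4 ± 6.05 CPM per kilobase), EloB (69.2 ± 9.16), Ubr1 (33.1 ± 4.43), Cul2 (21.4 ± 2.12), poe (19.1 ± 3.50), hyd (14.7 ± 3.50), EloA (11.5 ± 0.937), Ubr3 (10.8 ± 1.85) and Vhl (7.46 ± 0.533), and from Cul2 down to Ubr3 each neighbour overlapped the next. Ubr1 thus stood above EloB in every ND-75KD library and below it in every Control library. The margin in ND-75KD was narrow, with Ubr1 at 53.09 or more and EloB at 52.25 or less. Ubr1 is the longer gene, so this crossing also holds the length trend, which was not removed from these levels. Without Control 2 and Control 3, EloA (12.1) and Ubr3 (12.4) changed places in the Control order, and hyd stood at 17.1. The deposited FPKM values of all libraries gave the same order in both genotypes. They are scaled from the same reads and gene lengths, so this is no separate check.

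The 9 genes differ widely in length, and the genes with long transcripts tended to be the higher ones in ND-75KD over the whole table. All 4 UBR genes (7096 to 16216 bases) belong to the longest decile of tested genes, whose median log2 fold change was 0.23, the same as that of Ubr3 (0.23) and next to that of hyd (0.24). Ubr1 (0.69) and poe (0.82) lay well above that median. EloA, of 2869 bases, also lay well above its own decile (0.64 against a median of 0.04). EloC, of 654 bases, lay near its decile (-0.45 against -0.37), and EloB, of 1207 bases, lay below its decile (-0.51 against -0.20). Vhl, of 1309 bases, shares the decile of EloB, and Cul2, of 3426 bases, stood at 0.34 against 0.09.

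**Figure D3:**
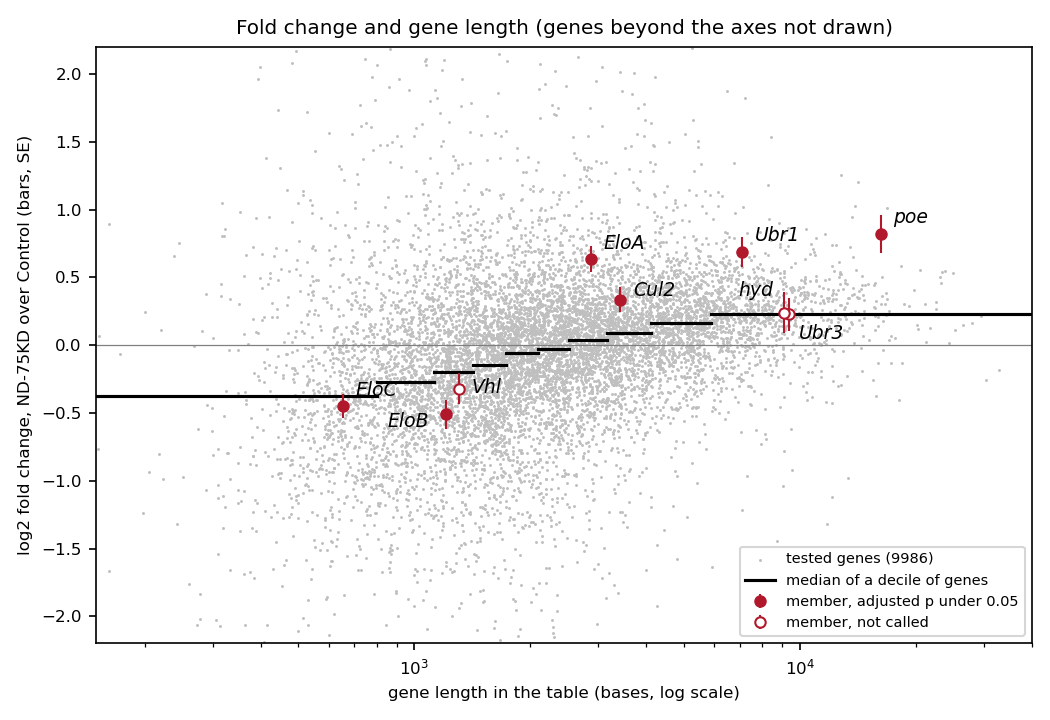
Log2 fold change (ND-75KD over Control) against gene length in bases on a log axis for tested genes (grey), the median of each decile of genes by length (black lines) and the 9 genes (red, bars SE, filled when called). Medians run from -0.37 to 0.23, hyd and Ubr3 lie on the line of the longest decile, and EloA, Ubr1 and poe lie above their lines.

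With the trend on gene length removed in each library, EloA kept nearly its whole difference (0.60) and Ubr1, poe, EloB and Cul2 were still called, at 0.47, 0.53, -0.34 and 0.25. EloC moved to -0.25 and was no longer called. Ubr3 (-0.01) and hyd (0.01) came to about 0, and Vhl to -0.16. Without Control 2 and Control 3, a choice made after seeing the data, Ubr1 was 0.67, poe 0.79, EloA 0.57, EloB -0.42 and EloC -0.41, all still called. Cul2 was 0.23 there and not called, and it also missed the threshold when Control 3, ND-75KD 2 or ND-75KD 3 alone was left out. Ubr3 and hyd stood at 0.04 and 0.03 without those Control libraries, whereas without Control 1 both were called higher, at 0.36 and 0.43.

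**Figure D4:**
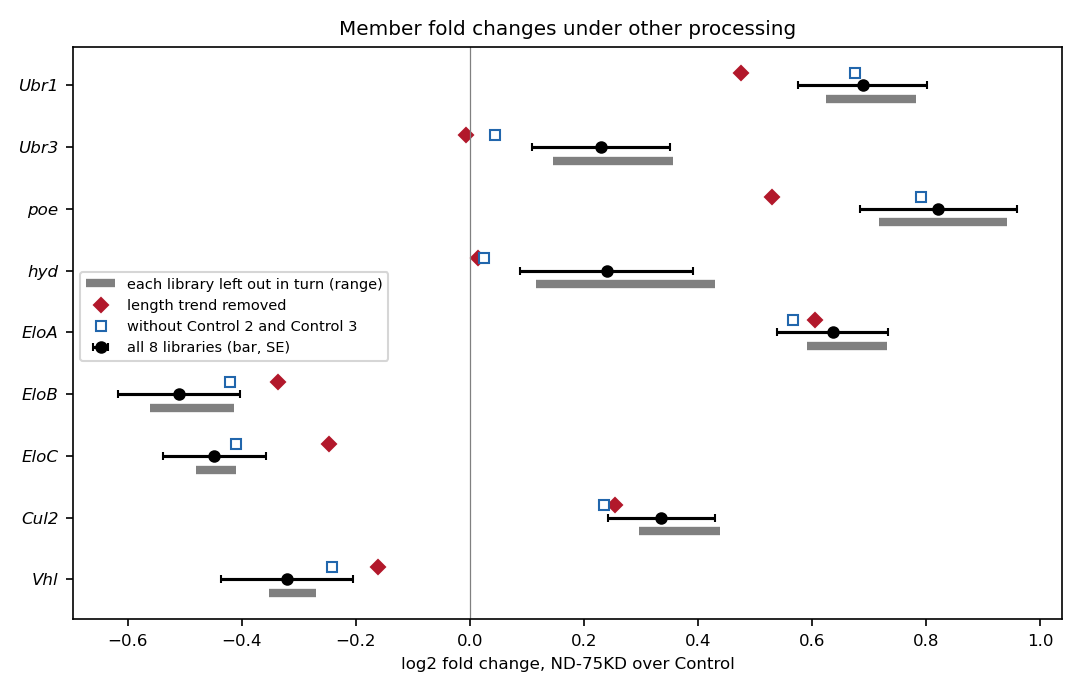
Log2 fold change of each gene (ND-75KD over Control) from all 8 libraries (black, bar SE), with each library left out in turn (grey bar, range), with the length trend removed (red) and without Control 2 and Control 3 (blue). EloA stays between 0.57 and 0.73, whereas Ubr3 and hyd lie close to 0 under both changes.

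Within genotypes, some of the 9 genes moved together from pool to pool. After subtracting each genotype's mean, log2 levels of poe and Ubr1 had a Pearson correlation of 0.946 over the 8 libraries (Spearman's rho 0.881; 0.868 without Control 2 and Control 3, the libraries farthest from the median). Those of hyd and Ubr3 had a correlation of 0.933 (rho 0.976; 0.914 without Control 1 and Control 2), and those of hyd and Cul2 0.89 (rho 0.833; 0.92 without the same libraries). EloA and EloC moved against each other (r of -0.921, rho -0.929; -0.753 without Control 1 and ND-75KD 3), and EloB and EloC only loosely together (r of 0.493). These points share their libraries and the length trend, and the relation of poe to Ubr1 was 0.901 without Control 2. Apart from EloB and EloC, the pairs named were picked as the strongest of all pairs. Others did not hold: hyd and Ubr1 went from 0.693 to -0.788 without Control 1 and Control 2. For Ubr1 and poe the spread lay mostly in Control (coefficient of variation 13.4% and 18.4%, against 0.792% and 4.12% in ND-75KD).

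Over all 8 libraries, with levels on the log2(CPM + 1) scale, the genes most like each member had Pearson correlations of 0.971 to 0.995. With each genotype's mean subtracted, the same pairs were at 0.88 to 0.991. These genes were picked as the highest of many, and the correlations include the genotype difference, so no shared regulation is read from them. Ubr1 was most like ft, CG14073 and CG18659, and poe most like CG9425, Ubr1 and CG18659. Ubr3 was most like cic, CG42324 and dikar, hyd most like flfl, gek and snama, and Cul2 most like NetB, phtf and Set1. EloA was most like CG33639, hpRNA:CR46342 and Sema2a. EloB was most like Cpr49Ae, CG8360 and CG43114, EloC most like Jheh2 and Hexo2, and Vhl most like CG4278, lncRNA:CR43452 and hgo.

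Of 6 genes for partners of UBR ligases, 1 was called higher and 1 lower, with a median log2 fold change of 0.06, beside -0.01 over all tested genes, of which 14.3% were called higher and 18.9% lower. No list of related genes is read as differing from that background. Ubc6, the E2 enzyme that works with Ubr1 in yeast and mammals under the name Rad6, was higher (0.46, adjusted p = 0.0139), at 292 CPM in ND-75KD and 212.5 CPM in Control on average. Diap1, an inhibitor of caspases and an N-degron substrate in flies, was lower (-0.41, adjusted p = 0.00845), at 215.5 CPM in ND-75KD and 285 CPM in Control. The arginyl transferase Ate1 (-0.03), the amidase gene tun (0.24), Kcmf1, a partner of UBR4 in mammals (-0.07), and calmodulin, Cam (0.15), were not called.

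Of 6 genes for SOCS box and BC box receptors, which take the place of Vhl on EloB and EloC, 1 was called higher and 1 lower. Fem-1 stood at 0.97 (adjusted p = 0.00941; 354 CPM in ND-75KD and 180.4 CPM in Control). The photoreceptor SOCS box gene stops, needed to end the light response, stood at -0.65 (adjusted p = 0.00565; 90.1 CPM in ND-75KD and 141 CPM in Control). Socs16D (0.23), Socs36E, an inhibitor of JAK/STAT signalling (0.09), Socs44A (0.01) and gus (0.01) were not called. Of the 3 genes of the hypoxia response, the factor that Vhl recognises, sima (-0.01), and its prolyl hydroxylase Hph (-0.15) were not called, although Hph was called lower with the length trend removed (-0.29). The partner of sima, tgo, was just past the threshold (0.36, adjusted p = 0.0474), a call lost when Control 3 or any 1 ND-75KD library was left out.

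Of 12 genes for cullins, RING subunits and neddylation, 4 were called higher and 1 lower (median 0.04). Cul3 was at 0.51 (adjusted p = 0.00501), and Cul1, Cul5 and Cul4 at 0.30, 0.31 and 0.31, Cul4 being named after its values were seen. Uba3, a subunit of the enzyme that activates Nedd8, was at -0.37 (adjusted p = 0.0175). The calls of Cul1, Cul5 and Uba3 were lost when the length trend was removed, and that of Cul3 was not; without Control 2 and Control 3, 1 of the 12 was called higher. Of 8 COP9 signalosome genes, which take Nedd8 off cullins, CSN3 alone was called (0.41, adjusted p = 0.0165, lost without ND-75KD 2), and the list's median was -0.03. Of 10 adaptors and receptors of other cullin ligases, 4 were called higher and 0 lower (median 0.25): Skp2 at 0.74, rdx at 0.35, kel at 0.33 and inc, the Cul3 adaptor needed for normal sleep, at 0.31. Without the length trend only Skp2 of these named 4 was still called, and 2 of the 10 were called higher without Control 2 and Control 3.

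Of 22 genes for RNA polymerase II elongation, the process in which EloA acts, 3 were called higher and 0 lower, with a median of 0.07. These were ear, a subunit of the super elongation complex (0.44, adjusted p = 0.0217), the histone chaperone Spt6 (0.34, adjusted p = 0.0356) and hyx, a subunit of the Paf1 complex (0.26, adjusted p = 0.0474). All 3 calls were lost when ND-75KD 2 was left out, and also when ND-75KD 3 was, and with the length trend removed 3 of the 22 genes were called higher and 2 lower.

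Among 14 tested genes for ubiquitin activating and conjugating enzymes, 4 were called higher and 1 lower (median 0.09). Among the higher ones were vih (0.58, adjusted p = 0.00473), Ubc6 and the single E1 gene of the list, Uba1 (0.38), and Ubc7, named after its values were seen, was at -0.44, a call lost with any 1 library other than Control 1 left out and with the length trend removed. Of 8 other HECT ligases, the catalytic class to which hyd belongs, 4 were called higher and 1 lower (median 0.23): Ufd4 at 0.54 (adjusted p = 0.00733), ctrip at 0.49, Ube3a, the fly counterpart of the Angelman syndrome gene, at 0.46, and Smurf, named after its values were seen, at 0.30, with Herc4 at -0.32. The call of Herc4 was lost with any 1 library other than Control 2 left out. Smurf was also just past the threshold (adjusted p = 0.0483 in the edgeR test). Of the 8, 3 were called higher without Control 3 or any 1 ND-75KD library, and also with the length trend removed. Over the 88 distinct genes of these lists, 22 were called higher (25%) and 5 lower (5.68%), beside 14.3% and 18.9% of all tested genes. Calls ran with gene length: 7.61% of the shortest decile were called higher and 28.8% lower, against 28.8% and 3.4% of the longest decile. A share matched on length was not taken, so nothing is read from the pooled shares.

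**Figure D5:**
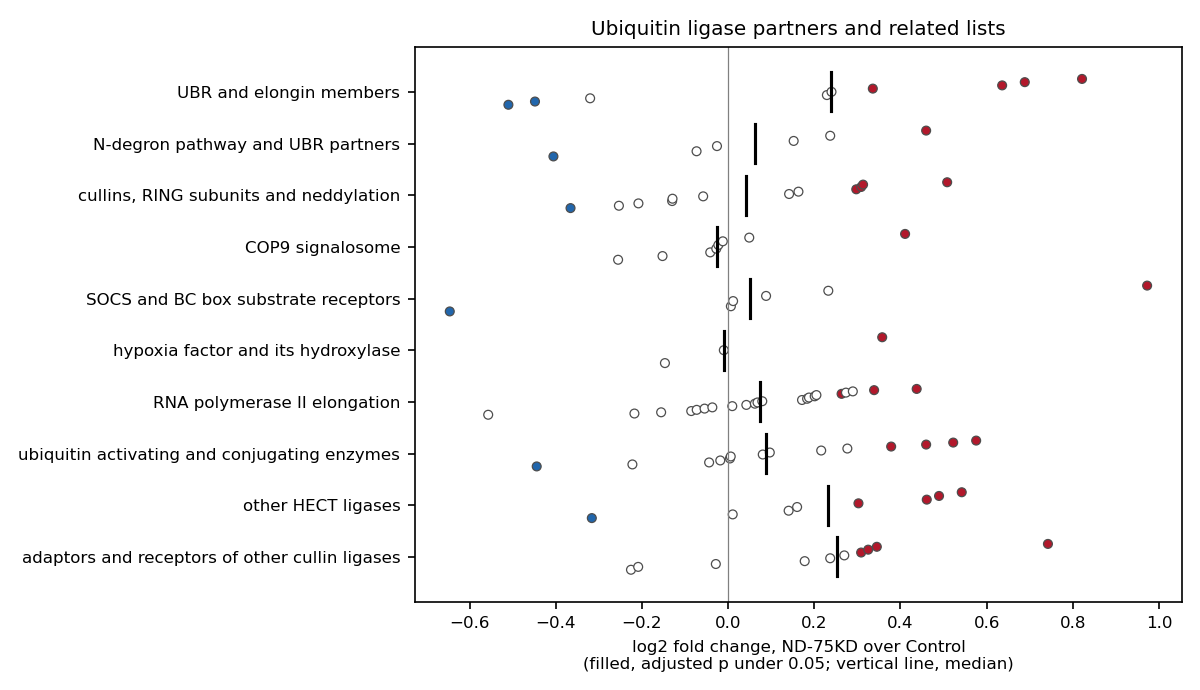
Log2 fold change (ND-75KD over Control) of each tested gene in the UBR and elongin set and in 9 lists of partners and related ligase genes; filled points were called (red higher, blue lower), open points were not, and vertical lines are medians. List medians lie between -0.03 and 0.25, and the set itself spans -0.51 to 0.82.

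Markers of head cell types differed between genotypes beside the set. Of 15 neuron markers 11 were called higher and 0 lower (median 0.46), and their summed level was 6751 to 7462 CPM in ND-75KD and 4870 to 6010 CPM in Control. These genes are long as well, with a median length of 7098 bases, and 7 were called higher with the length trend removed and 10 without Control 2 and Control 3. Of 8 fat body markers 6 were called lower (median -1.38, with sums of 5112 to 10890 CPM in ND-75KD and 28420 to 42880 CPM in Control), as were all 5 hemocyte markers tested (sums of 170 to 206 CPM in ND-75KD and 344 to 551 CPM in Control). Most of the fat body sum came from the yolk protein genes Yp1, Yp2 and Yp3. They averaged 971, 2382 and 1743 CPM in ND-75KD, against 4681, 9763 and 13640 CPM in Control. Lsd-1 (-0.46) and Lsp2 (-0.42) were the fat body markers not called. Of 9 glia markers 3 were called lower and of 9 photoreceptor markers 4, while 1 of 9 muscle markers was called in each direction. These counts moved with single libraries: photoreceptor markers called lower numbered 2 without Control 3, Control 4 or any 1 ND-75KD library, glia markers 1 without ND-75KD 2, and muscle markers called higher 0 without Control 3 or any 1 ND-75KD library. No defining marker was at 0 in every library. In whole heads, fewer cells of a type and less RNA per cell cannot be told apart, and the part of these markers in the results on the 9 genes was not tested.

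Per 1000 CPM of summed neuron markers, Ubr1 stood at 53.2 ± 2.57 in ND-75KD and 44.0 ± 7.62 in Control, and poe at 76.7 ± 5.30 in ND-75KD and 57.9 ± 12.5 in Control (SD, n = 4 each), and both now overlapped between genotypes. Without Control 2 and Control 3 neither did, with Control at 40.5 for Ubr1 and 53.9 for poe. EloA, at 7.15 ± 0.326 in ND-75KD and 6.13 ± 0.479 in Control, did not overlap. EloB stood at 8.23 ± 0.726 in ND-75KD and 15.7 ± 3.39 in Control, and EloC at 6.76 ± 0.714 in ND-75KD and 12.3 ± 1.75 in Control, both without overlap, and Vhl too lay below in every ND-75KD library. For EloB, EloC and Vhl that had to follow, since they lay lower and the marker sum higher in every ND-75KD library. The neuron markers are also longer than these genes, so the values hold the length trend, which was not removed. Without Control 2 and Control 3, Control stood at 13.3 for EloB and 10.9 for EloC. Cul2 (13.0 ± 0.633 in ND-75KD and 13.6 ± 0.785 in Control), Ubr3 (16.7 ± 0.903 in ND-75KD and 18.7 ± 1.54 in Control) and hyd (22.2 ± 1.06 in ND-75KD and 24.7 ± 4.33 in Control) overlapped on this scale, Ubr3 no longer so without Control 2 and Control 3 (19.6 in Control).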

How the data were processed

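RNA of heads was sequenced as paired-end reads. The authors cleaned reads with fastp, aligned them with HISAT2 to the Ensembl fly release that the methods name and counted reads for each gene with featureCounts, which gave the deposited counts; tool versions and the strand setting are not given in the sources used here. The deposited signal values are counts divided by the authors' size factor for each library and were not used in tests. The deposited FPKM values, scaled by the authors to gene length and library size, were used only for the order of levels. The authors' log2 fold changes and p-values from DESeq2 were deposited too and were not used.

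Genes were kept by filterByExpr (minimum count 10, total 15), scaled by TMM and tested on all 8 libraries with the edgeR 4.0.16 quasi-likelihood test in R 4.3.3, adjusted by Benjamini-Hochberg over all tested genes. The SE is the log2 fold change over the square root of F. The filter keeps a gene that passes in 1 genotype alone. The biological coefficient of variation was 0.171, and the script was tested on simulated data. Those data had the same dispersion for every gene, no length trend and no library set apart, unlike the libraries here. Alternatives were DESeq2 1.42.0, limma 3.58.1 voom with quality weights, other scalings and filters, a loess fit on gene length (span 0.5) removed by offsets, glmTreat (fold 1.2), a replicate block and each library left out. The table's coordinates equal those of the BDGP6 Ensembl annotation for all 9 genes.

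The 9 genes, the gene lists and the markers were chosen with earlier results of these data known. Named genes were the 9, ND-75, the called genes of each list (at most 4, by smallest adjusted p), every gene of lists of 6 or fewer, the 3 genes most like each member (mean CPM of at least 10) and genes overlapping a member. Samples were grouped by the genotype in their labels. Some genes that this rule names are not reported here.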

Additional observations from a re-analysis of the deposited data

How the results depend on the processing

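Of the 9 genes, between 3 and 6 were called higher and 2 lower as each library was left out in turn, the 6 without Control 1. Over all genes the same fits called 931 to 1723 genes higher and 1308 to 1980 lower, against 1429 and 1885 with all 8 libraries. Against a fold of 1.2, 696 genes were called higher and 1121 lower. With the length trend removed, by a local linear or, chosen after seeing the data, a local quadratic fit, 1 of the 9 genes was called lower instead of 2, as EloC dropped out. voom called 5 of the 9 genes higher and 3 lower, adding Ubr3 and Vhl. The cause of these shifts was not tested.

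Replicate numbers did not pair the samples: same-numbered libraries had correlations of -0.112 to 0.0264 in their deviations from the genotype means. With the number as a replicate block, 1154 genes were called higher and 1553 lower, and of the 9 genes 3 and 2, without Cul2.

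Ubr3, at 0.23 with all libraries and 0.15 to 0.36 with 1 left out, was at -0.0073 and -0.0046 with the length trend removed (linear and quadratic). Other named genes that were not called changed sign under some settings. Under upper quartile scaling, at least 10 reads in every library, the 2 length fits and without Control 1, 3 or 4, Ate1 was at 0.0067, 0.011, 0.066, 0.074, 0.073, 0.023 and 0.0092. Kcmf1 was at 0.045 and Socs36E at -0.014 without Control 2, and at 0.15 and -0.042 without Control 2 and 3. Cam was at -0.055 and -0.073 with the length fits, and Socs44A at -0.018 with voom and -0.012 without Control 4. gus was at -0.021, -0.047, -0.0080 and -0.0068 without Control 1, Control 4, ND-75KD 2 and ND-75KD 3. sima was at 0.0022 with DESeq2 size factors, 0.022 with upper quartile scaling, 0.0043 with DESeq2, 0.026 with at least 10 reads, 0.0072 with the replicate block, and 0.16, 0.0048 and 0.017 without Control 1, Control 3 and ND-75KD 3. With each library left out in turn, Ate1 ran from -0.13 to 0.073, Kcmf1 from -0.12 to 0.045, Socs44A from -0.012 to 0.059, gus from -0.047 to 0.19 and sima from -0.099 to 0.16. Of the list counts, the genes for cullins and neddylation called higher ran from 1 to 4, those for RNA polymerase II elongation from 0 to 4, the adaptors from 2 to 5 and the neuron markers from 8 to 12 in the same fits.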
